A study of Rattus rattus with 18 samples.

Results

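The comparison described here set 3 peri arrays of rats labelled remote limb postconditioning (PostC) against 3 peri arrays of sham-operated rats. These 6 arrays were chosen by their sample titles, out of the 18 arrays of the series, and every one of the 761 rat miRNA probes on the array was followed. All animals were Sprague Dawley rats, and the series holds 3 sham, 3 tMCAO (transient middle cerebral artery occlusion) and 3 PostC rats, with a core array and a peri array from every rat. The 3 tMCAO peri arrays enter the fits and are given beside the others. The design description writes tMCAO-PostC as a joint term and leaves it unsaid if PostC rats were also occluded, and the paper does not describe this group, so what the PostC rats underwent besides the limb procedure is not known here. The sample labels give the tissue of the peri arrays as striatum, whereas the paper places the striatum in the core, so peri is used below without a tissue name. The labels name the species Rattus rattus and the series title Rattus norvegicus. Each array was hybridised with RNA of 1 rat, so the spread between arrays holds the differences between animals as well as those of the assay.

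MicroRNAs are short RNAs that guide Argonaute proteins to messenger RNAs, mostly through the seed near their 5′ end, and lower the output of those messages. Brain tissue holds miRNAs typical of neurons, of oligodendrocytes, of vessel walls and of the blood in the vessels, so a tissue level reflects both regulation and the make-up of the sample. In remote limb postconditioning the blood flow of a limb is stopped and released in cycles after a brain insult, and the procedure is studied as a way to protect tissue around an infarct.

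The mature sequences below are those listed for the probes in the array files, with the seed (bases 2 to 8) in capitals. The first set holds 10 miRNAs whose PostC and sham values did not overlap, those with the smallest p in each direction among probes detected on all arrays of at least 1 group. Dimmer probes that did not overlap, some with a smaller p, are left out of it. let-7e-5p shares its seed with the 8 other let-7 family probes and differs from let-7a-5p by 1 base, and miR-27b-3p differs from miR-27a-3p by 1 base, so signals of these neighbours may be shared between probes.
miR-762: gCGGGGCUagggccggga
miR-485-5p: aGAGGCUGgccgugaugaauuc
miR-7a-2-3p: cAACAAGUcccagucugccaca
let-7e-5p: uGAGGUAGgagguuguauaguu
miR-668: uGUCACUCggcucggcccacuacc
miR-344a-3p: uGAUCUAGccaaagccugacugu
miR-494-3p: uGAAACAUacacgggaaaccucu
miR-3568: uGUUCUUCccgugcagaagcag
miR-212-5p: aCCUUGGCucuagacugcuuacug
miR-27b-3p: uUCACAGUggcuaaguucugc

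The second set holds miRNAs for which 1 PostC rat stood far from the other PostC rats, and which decide how the group mean reads. miR-132-3p and miR-212-3p, which come from 1 cluster, share a seed that no other probe on the array has.
miR-218a-5p: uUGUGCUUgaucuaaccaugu
miR-568: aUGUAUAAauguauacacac
miR-494-5p: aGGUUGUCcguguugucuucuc
miR-21-5p: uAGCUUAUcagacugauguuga
miR-132-3p: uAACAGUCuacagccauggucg
miR-212-3p: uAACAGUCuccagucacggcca
miR-451-5p: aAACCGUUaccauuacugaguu
miR-143-3p: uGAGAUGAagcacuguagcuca

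Levels are given below as normalized log2 intensity of a probe, so that a difference of 1 means a doubling, and levels of different probes are not compared with each other. A probe counted as detected where its median spot exceeded a limit set from the empty spots of that array (their median plus 3 scaled median absolute deviations), and the 532 probes detected on at least 3 of the 18 arrays were tested. The sham arrays detected 471, 318 and 354 miRNAs, and the PostC arrays of rats 1, 2 and 3 detected 336, 524 and 188. The limit from the empty spots was 329 intensity units on the array of PostC rat 3, against 184 and 52.9 for PostC rats 1 and 2 and 84.9 to 171 in sham. With a limit based instead on the dimmest 25% of the miRNA spots, the array of PostC rat 3 detected 464 miRNAs and the sham arrays 502 to 533. Of the 761 probes, 188 were detected on all 6 arrays compared.

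The array of PostC rat 3 stood apart from those of the other PostC rats. Across the 532 miRNAs, PostC rats 1 and 2 correlated with each other at r = 0.978, and rat 3 correlated with them at 0.898 and 0.894. The mean correlation with the sham arrays was 0.968 for PostC rat 1, 0.975 for rat 2 and 0.921 for rat 3. With the tMCAO peri arrays the order was the opposite, at 0.939 for rat 1, 0.937 for rat 2 and 0.959 for rat 3. These r describe arrays that share the same probes, and they carry no test. On the first principal component of the 9 peri arrays, which held 50.1% of the variance, PostC rat 3 lay at -11.7, the tMCAO rats between -8.73 and -3.97, the sham rats between 3.83 and 5.63, and PostC rats 1 and 2 at 7.88 and 8.32. Over the 141 miRNAs detected on all 18 arrays, rat 3 had a mean r of 0.835 with sham, 0.797 with PostC and 0.890 with tMCAO. The label of this array was kept, and values without it are given beside the results that it decides.

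**Figure D1:**
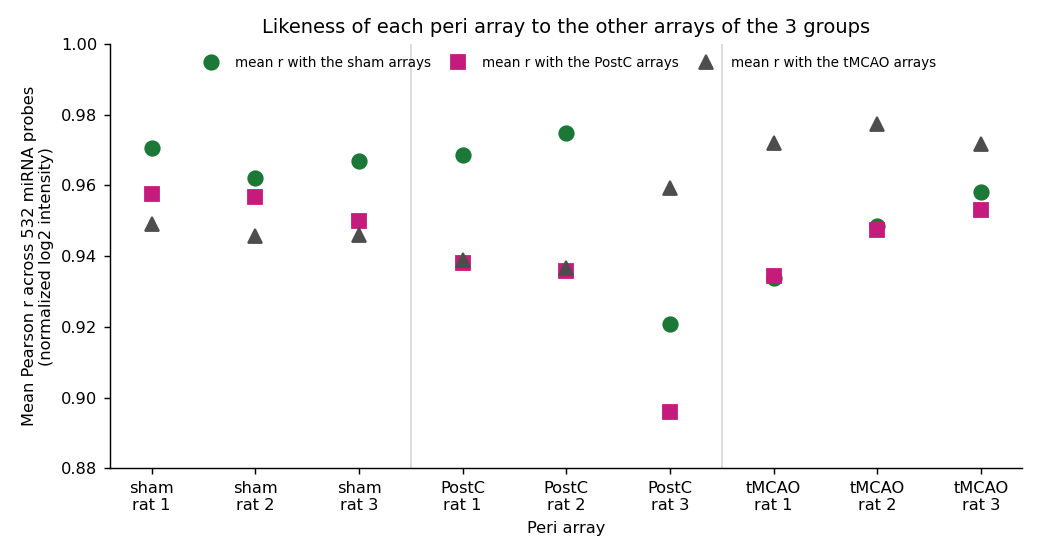
Mean Pearson correlation (vertical axis, across 532 miRNAs, normalized log2 intensity; the axis starts at 0.88) of each of the 9 peri arrays (horizontal axis) with the sham, PostC and tMCAO peri arrays, an array's correlation with itself left out. PostC rats 1 and 2 sit highest with sham (0.968 and 0.975), and PostC rat 3 sits highest with tMCAO (0.959) and lowest with the other PostC rats (0.896). The PostC mean of rats 1 and 2 includes rat 3, and their r with each other was 0.978.

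The departure of rat 3 was spread over many miRNAs. In this rat 94 of the 532 tested miRNAs (17.7%) were more than 1 log2 unit away from the sham mean, 37 above and 57 below it. The same count was 21 in PostC rat 1 and 7 in rat 2, and 15 to 31 for each sham rat against the mean of the others. In 217 of the 532 miRNAs rat 3 lay on the other side of the sham mean from rats 1 and 2, which agreed in sign, and in 115 miRNAs all 3 PostC rats lay on the same side. The median SD among rats was 0.36 in PostC, 0.25 in sham and 0.20 in tMCAO, and it was 0.18 among PostC rats 1 and 2. An SD over 1 was found for 43 miRNAs in PostC, for 5 without rat 3, and for 12 in sham.

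No miRNA passed an adjusted p of 0.05 between PostC and sham in peri (0 of 532, 0%). The smallest adjusted p of limma was 0.299, for miR-664-1-5p, which is named after its values were seen and was detected on only 1 sham array. At an unadjusted p under 0.05 limma gave 14 miRNAs (2.63% of those tested), 11 with a higher and 3 with a lower PostC mean. Only 3 of these 14, miR-762, miR-494-3p and miR-9a-3p, were detected on all 3 arrays of at least 1 group, and 7 were not detected on any sham array. The 3 PostC values lay wholly above the 3 sham values for 18 miRNAs (3.38%) and wholly below them for 9 (1.69%), 27 in all (5.08%), of which 12 were detected on all 3 arrays of at least 1 group. The median difference between the PostC and sham means was 0.03 and the median size of the difference 0.15, with 291 miRNAs higher and 241 lower in the PostC mean. Without PostC rat 3 the number past the adjusted threshold was again 0, with 31 miRNAs at an unadjusted p under 0.05 (5.83%) and a smallest adjusted p of 0.0616. Leaving out PostC rat 2 instead raised the unadjusted count further, and quantile normalization lowered it, as given in the last section.

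How far this comparison could show a difference is given by the intervals. The median 95% interval of a difference reached 0.66 log2 units to either side. For 371 of the 532 miRNAs (69.7%) the whole interval lay between -1 and 1, and for the other 161 it reached past 1 or -1, so that a difference of that size lay within it at this number of rats. With 3 rats against 3, an exact permutation test of a single miRNA cannot give a p below 0.1.

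Among miRNAs detected in full in at least 1 group, miR-762, a GC-rich miRNA (83.3% G or C), had the smallest p among those higher in PostC. Its levels were 7.45, 7.91 and 7.37 in the sham rats and 8.86, 8.98 and 7.97 in the PostC rats. The groups did not overlap, though PostC rat 3 was only just above the highest sham rat, and on that array the probe was below the detection limit. The difference was 1.03 with a 95% interval from 0.32 to 1.73 and did not pass the correction (limma, adjusted p = 0.991). Without PostC rat 3 it was 1.34 ± 0.25 (SE), the adjusted p of limma then being 0.0616. Rat 3 was singled out from these data and held the lowest PostC value of miR-762, so that p rests on this choice. With all rats the difference was 0.45 when arrays were scaled by their medians alone and 0.62 after quantile normalization. In the deposited normalized intensities, on a linear scale, the sham rats had 123, 194 and 113 units and the PostC rats 342, 426 and 110, so that with these values the groups overlapped.

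Among the 18 miRNAs that stood higher in all PostC rats, 5 others of the set printed above had smaller differences than miR-762. For miR-485-5p, of the imprinted Dlk1-Dio3 cluster, the sham rats had 7.93, 7.96 and 8.02 and the PostC rats 8.40, 8.57 and 8.75, a difference of 0.60 (95% interval -0.09 to 1.30). For let-7e-5p, of the let-7 family that restrains growth and the pluripotency factor Lin28, the sham rats had 10.86, 10.74 and 10.83 and the PostC rats 11.44, 11.11 and 11.47, a difference of 0.53 (-0.13 to 1.19). All 3 PostC rats were above all 3 sham rats in both, and PostC rat 3 was not apart from the others, though on its array miR-485-5p was below the detection limit, as was miR-7a-2-3p. miR-7a-2-3p, the passenger arm of a miR-7a hairpin, differed by 0.52 (-0.10 to 1.15) and by 0.33 without rat 3, miR-668 by 0.46 (-0.28 to 1.20) and miR-344a-3p by 0.41 (-0.42 to 1.24). Rat 3 carried most of the difference of miR-344a-3p, with 10.98 against 9.99 and 10.03 in PostC rats 1 and 2 and 9.91 to 9.93 in sham, and without rat 3 the difference was 0.09. When arrays were scaled by their medians alone, these differences were 0.17 for miR-485-5p, 0.24 for miR-7a-2-3p, 0.01 for let-7e-5p, -0.09 for miR-668 and -0.20 for miR-344a-3p, while the median over all tested miRNAs moved from 0.03 to -0.19. With plain background subtraction miR-485-5p differed by 1.21, miR-7a-2-3p by 1.34 and miR-668 by 0.72, beside a median of 0.13 over all tested miRNAs.

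miR-494-3p, another member of the Dlk1-Dio3 cluster, had the largest difference on the lower side. The sham rats had 11.32, 10.90 and 11.83 and the PostC rats 10.38, 10.77 and 9.41. All PostC rats lay below all sham rats, and PostC rat 3 was the lowest. The difference was -1.17 (95% interval -2.11 to -0.23) and did not pass the correction (limma, adjusted p = 0.991). Without PostC rat 3 it was -0.78 ± 0.38 (SE). The tMCAO rats had 9.77, 10.01 and 10.78. In the deposited intensities the sham rats had 2572, 1823 and 3569 units and the PostC rats 1235, 1624 and 577, so the groups did not overlap there either.

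Of the 9 miRNAs with all PostC rats below all sham rats, the other members of the printed set differed by less. miR-3568 differed by -0.36 (-0.81 to 0.10), and it was detected on 1 PostC array and all 3 sham arrays. miR-212-5p, the arm opposite to the activity-regulated miR-212-3p, differed by -0.36 (-1.06 to 0.34). miR-27b-3p, of a cluster with miR-23b and miR-24, differed by -0.25 (-0.80 to 0.31). Leaving out PostC rat 3 gave -0.28, -0.29 and -0.22 for these miRNAs, all within 0.1 of the value from all rats. Under median scaling miR-212-5p differed by -0.97 and miR-27b-3p by -0.70, beside a median of -0.19 over all tested miRNAs, and miR-3568 differed by -1.34 with plain background subtraction and by -0.73 in the deposited intensities.

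**Figure D2:**
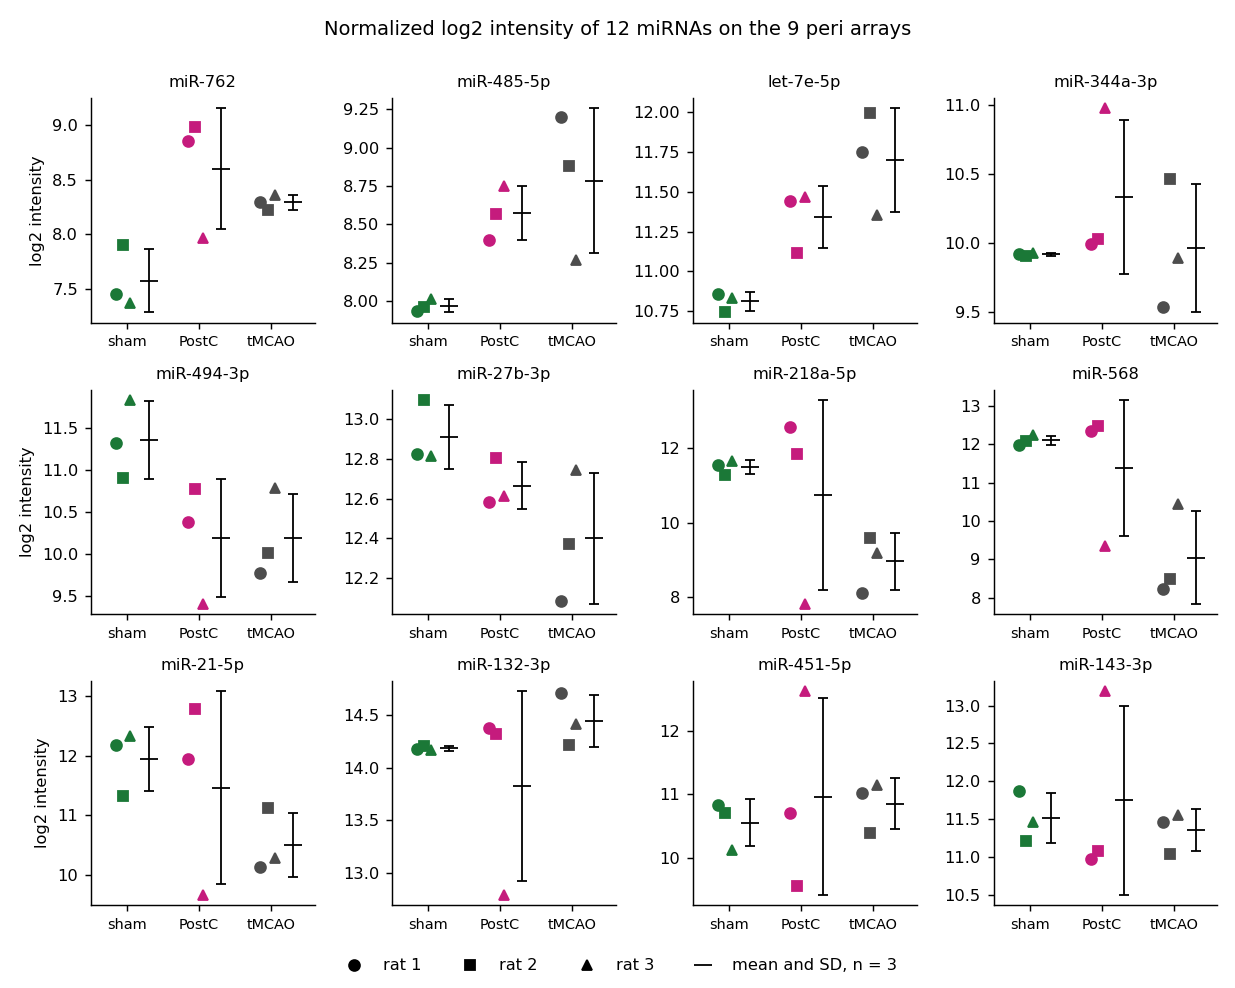
Normalized log2 intensity (vertical axis) of 12 miRNAs in the sham, PostC and tMCAO peri arrays (horizontal axis), with a marker for each rat and the mean and SD of each group beside it (n = 3). For miR-218a-5p, miR-568, miR-21-5p and miR-132-3p PostC rat 3 (triangle) lies below every sham rat, at 7.83, 9.34, 9.66 and 12.79, and for miR-451-5p and miR-143-3p above every other array, at 12.63 and 13.19.

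PostC rat 3 stood far from rats 1 and 2 in several miRNAs whose PostC and sham values overlapped. For miR-218a-5p, a neuron-enriched miRNA encoded within Slit genes, the sham rats had 11.55, 11.27 and 11.65, PostC rats 1, 2 and 3 had 12.56, 11.85 and 7.83, and the tMCAO rats had 8.11, 9.60 and 9.18. PostC rats 1 and 2 were above every sham rat and rat 3 was the lowest of the 9 arrays, and there the probe was below the detection limit. The difference between the group means was -0.74 (95% interval -2.71 to 1.22), and without rat 3 it was 0.72 ± 0.42 (SE).

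miR-568 had 11.98, 12.08 and 12.23 in sham, 12.34, 12.47 and 9.34 in PostC and 8.23, 8.49 and 10.43 in tMCAO, so that PostC rats 1 and 2 were above every sham rat and rat 3 lay within the tMCAO range. Its difference was -0.71 (-2.33 to 0.90), and 0.31 without rat 3. For miR-494-5p the sham rats had 8.72, 9.95 and 8.89, PostC rats 1 and 2 had 9.58 and 10.51, and rat 3 had 6.92, next to the 7.49, 6.97 and 6.86 of the tMCAO rats. Neither the array of PostC rat 3 nor any tMCAO array detected miR-494-5p.

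miR-21-5p, which is induced in reactive glia and in inflammation, had 12.18, 11.33 and 12.33 in sham, 11.95, 12.79 and 9.66 in PostC and 10.13, 11.13 and 10.28 in tMCAO. It was detected on all 9 arrays, and rat 3 was again the lowest of them. The difference was -0.48 (-1.86 to 0.90) with all rats and 0.42 without rat 3. In the other direction, miR-451-5p of red blood cells had 10.83, 10.71 and 10.13 in sham and 10.70, 9.55 and 12.63 in PostC, and its difference of 0.41 (-0.90 to 1.72) was -0.43 without rat 3. miR-143-3p, of smooth muscle, had 11.87, 11.21 and 11.46 in sham and 10.97, 11.08 and 13.19 in PostC, with a difference of 0.23 (-0.86 to 1.32) that was -0.49 without rat 3. For miR-568, miR-494-5p and miR-143-3p the choice was made after their values were seen.

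The miRNAs were next read by cell type and family. Of 11 neuron-enriched miRNAs, all tested, 0 passed the adjusted threshold, 5 had a higher and 6 a lower PostC mean, and the median difference was -0.03, beside 0.03 over all tested miRNAs. Without PostC rat 3 the median was 0.12, and under median scaling it was -0.56, beside -0.19 over all tested miRNAs. miR-124-3p, the most neuron-specific of them, had 14.15, 14.08 and 14.14 in sham and 14.00, 14.23 and 14.54 in PostC, a difference of 0.14 (-0.30 to 0.58) that was -0.003 without rat 3. At an unadjusted p under 0.05 stood 1 of the 11, beside 2.63% of all tested miRNAs. This was miR-9a-3p, with 12.47, 14.02 and 13.07 in sham and 14.04, 13.79 and 14.08 in PostC, so that the groups overlapped through sham rat 2. Of the 11, 10 were detected on all 6 arrays. In whole tissue, fewer cells of a type and less of a miRNA per cell cannot be told apart.

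The miR-132 and miR-212 cluster, transcribed in neurons in response to activity through CREB, had a lower PostC mean in all 4 of its members (median difference -0.36, and 0.09 without PostC rat 3), and 0 passed the adjusted threshold. miR-212-5p was lower with and without this rat, as given above, and the other 3 were not lower without it. miR-132-3p was nearly constant in sham, at 14.18, 14.21 and 14.17. It had 14.38 and 14.32 in PostC rats 1 and 2, above every sham rat, and 12.79 in rat 3. miR-212-3p had 11.69, 12.02 and 11.47 in sham and 11.63, 11.87 and 9.94 in PostC. The median of the cluster against the sham mean was 0.05 in rat 1, 0.14 in rat 2 and -1.57 in rat 3. The tMCAO rats had 14.71, 14.22 and 14.42 for miR-132-3p, so for this miRNA rat 3 was below the tMCAO rats as well.

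The 4 tested oligodendrocyte miRNAs, which promote the maturation of these cells, all had a higher PostC mean (median difference 0.38), and 0 passed the adjusted threshold. The lead member miR-338-3p varied widely in both groups, with 9.68, 10.55 and 8.08 in sham and 10.82, 9.06 and 10.79 in PostC, a difference of 0.79 (-0.55 to 2.12), and 0.50 without PostC rat 3. miR-219a-5p, the other lead, had 7.52, 7.77 and 6.54 in sham and 8.12, 7.69 and 7.08 in PostC. The values of both groups overlapped in each, and the median of this list was -0.01 under median scaling and 0.86 with plain background subtraction, beside -0.19 and 0.13 over all tested miRNAs.

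Of 7 miRNAs of leukocytes and inflammation, 6 were tested and 0 passed the adjusted threshold, with a median difference of 0.09, which was 0.24 without PostC rat 3 and -0.18 with the deposited intensities. With all rats this median fell between miR-155-5p and miR-223-3p, whose signal lay under the detection limit. The 3 members detected on all 6 arrays differed by 0.46 (miR-146a-5p), 0.22 (miR-150-5p) and -0.48 (miR-21-5p). miR-155-5p and miR-223-3p, typical of activated leukocytes and of neutrophils, were not detected on any of the 9 peri arrays, and miR-142-3p was not tested. miR-150-5p, of lymphocytes, had 11.19, 11.28 and 11.40 in sham and 11.81, 11.72 and 11.01 in PostC, with rats 1 and 2 above and rat 3 below every sham rat.

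Several blood and vessel miRNAs had their highest level on the array of PostC rat 3, and 0 passed the adjusted threshold. Of 4 red blood cell miRNAs only miR-451-5p and miR-486 were tested, and both arms of miR-144 were below the filter. Their summed intensity ranged from 1231 to 1927 in sham and from 897 to 6551 in PostC, and their median against the sham mean was 0.26 in rat 1, -0.23 in rat 2 and 1.54 in rat 3 (median difference 0.52, and 0.01 without rat 3). miR-486, whose PostC values lay above all sham values (median of the group 7.18 against 6.77), was detected on 1 array of each group. With plain background subtraction the difference of miR-486 was 3.00 in place of 0.63 and the median of both miRNAs 1.72. Under median scaling these values were 0.46 and 0.15, beside -0.19 over all tested miRNAs. The summed intensity of the 5 vascular miRNAs ranged from 15691 to 18390 in sham and from 14063 to 36934 in PostC, and their median against the sham mean was -0.19, -0.12 and 0.97 in rats 1, 2 and 3 (median difference 0.23, and -0.09 without rat 3). Endothelial miR-126a-3p had 13.80 in rat 3 against 12.90 and 12.70 in rats 1 and 2 and 12.59 to 13.03 in sham, and smooth muscle miR-145-5p had 13.67 against 12.24 and 12.28 and 12.33 to 12.75. The opposite arm miR-126a-5p, detected on 1 array of each group, was highest in rat 1, at 0.93, 0.11 and 0.33 against the sham mean in rats 1, 2 and 3. The part of blood and vessel content in the other values of this array was not tested. Of 11 miRNAs of liver, muscle and epithelium 6 were tested, miR-122-5p of liver was below the filter, and 0 passed the adjusted threshold.

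Among miRNA families with shared seeds or shared transcripts, none had a member past the adjusted threshold. In the let-7 family 8 of 9 members had a higher PostC mean (median difference 0.18), but under median scaling the median was -0.29, below the -0.19 over all tested miRNAs. The medians of the family by rat were 0.57, 0.16 and 0.00. The 3 members of the miR-29 family, which targets collagen messages, had medians of 0.82, -0.27 and 0.78 in rats 1, 2 and 3 (median difference 0.40, and 0.04 without rat 3), and miR-29a-3p had 14.38, 14.66 and 14.28 in sham and 14.64, 14.32 and 15.07 in PostC. In the miR-17-92 cluster and its paralogs, which promote proliferation, rats 1 and 2 had medians of -0.15 and -0.14 and rat 3 had 0.85 (median difference 0.18, and -0.16 without rat 3). In the miR-181 family the medians were 0.47, 0.35 and -0.96 (median difference 0.08, and 0.41 without rat 3), with miR-181b-5p at 11.64, 11.29 and 9.95 in PostC against 10.46 to 11.60 in sham. miR-181a-5p did not follow, at -0.13, 0.19 and 0.29 against the sham mean. By the medians of both lists rat 3 stood on the other side of the sham mean from rats 1 and 2, except that under median scaling rat 1 was also below it for miR-181 (-0.25, beside -0.20 over all tested miRNAs in this rat). Over all PostC rats, median scaling turned the median differences of several lists negative, beside -0.19 over all tested miRNAs. They were -0.37 for miR-17-92, -0.41 for miR-181, -0.26 for miR-30 and -0.46 for the group of miR-15, miR-16, miR-195 and miR-497. The -0.05 for miR-29 and -0.13 for the vascular list stayed above the median over all tested miRNAs. The sign of rat 3 itself held under quantile normalization, median scaling, loess over the peri arrays and with the deposited intensities for the miR-132 and miR-212, miR-181, red blood cell, vascular and miR-17-92 lists, with the miR-17-92 median between 0.14 and 1.00 and that of miR-132 and miR-212 between -2.00 and -1.55.

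**Figure D3:**
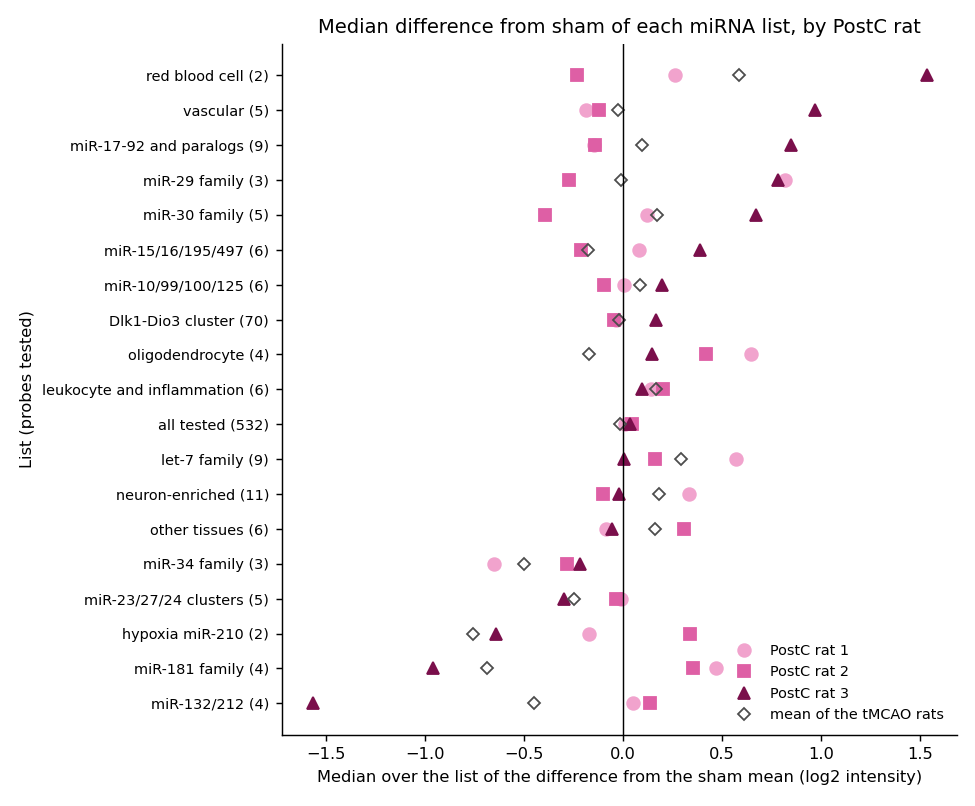
Median over each list of miRNAs (vertical axis, with the number tested) of the difference from the sham mean (horizontal axis, log2 intensity), for each PostC rat and for the mean of the tMCAO rats. PostC rat 3 (triangle) has the lowest median of the 3 rats for miR-132 and miR-212 (-1.57) and miR-181 (-0.96) and the highest for red blood cell (1.54), vascular (0.97) and miR-17-92 (0.85) miRNAs, and over all tested miRNAs the rats lie at 0.01, 0.05 and 0.04.

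Of the large imprinted Dlk1-Dio3 cluster, which is expressed mostly in brain, 70 of 76 listed members were tested. Its median difference was -0.04, with 30 members higher and 40 lower in the PostC mean, and 0 passed the adjusted threshold. The median was -0.44 under median scaling and 0.10 with plain background subtraction, beside -0.19 and 0.13 over all tested miRNAs. The 3 PostC rats lay above the 3 sham rats for 5 of the 70, namely miR-433-3p, miR-485-5p, miR-539-5p, miR-668 and miR-770-5p, and below them for 1, miR-494-3p. Over all tested miRNAs these shares were 3.38% and 1.69%. The next lowest difference in the cluster after the -1.17 of miR-494-3p was -0.38, for miR-370-3p, and the highest was the 0.60 of miR-485-5p.

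In the remaining families the median difference was 0.14 for the 5 tested members of the miR-30 family, 0.13 for the 6 of the group of miR-15, miR-16, miR-195 and miR-497, -0.07 for the 5 of the miR-23, miR-27 and miR-24 clusters, -0.01 for the 6 of the group of miR-10, miR-99, miR-100 and miR-125 and -0.36 for the 3 of the p53-regulated miR-34 family. In the latter the medians by rat were -0.65, -0.28 and -0.22, each from a different member. miR-34a-5p, the only one detected on all 6 arrays, had -0.65, 0.20 and 0.77 against the sham mean. Without rat 3 the miR-30 median was -0.13. Under median scaling the medians were -0.49 for the miR-23, miR-27 and miR-24 clusters and -0.43 for the miR-10, miR-99, miR-100 and miR-125 group, and with the deposited intensities the miR-34 median was -0.81. miR-195-5p differed by 0.58, and by 0.23 without rat 3. Both arms of miR-210, the hypoxia-induced miRNA, were tested. miR-210-3p had 8.39, 7.53 and 8.24 in sham and 7.53, 8.41 and 8.35 in PostC, a difference of 0.04 (-0.71 to 0.79). miR-210-5p had 11.41, 11.86 and 11.88 in sham and 11.90, 12.04 and 10.14 in PostC, with rats 1 and 2 above and rat 3 below every sham rat.

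The 15 miRNAs that the study took from these arrays to its plasma measurements were also read as a list. As they were picked on arrays of this series, their direction is not independent evidence. None passed the adjusted threshold between PostC and sham, 10 had a higher and 5 a lower PostC mean, and the median difference was 0.12. The extremes were miR-9a-3p at 0.78 and miR-218a-5p at -0.74, and without PostC rat 3 these miRNAs were at 0.73 and 0.72. All 3 PostC rats lay below all sham rats in 1 of the 15, miR-27b-3p, and above them in 0, beside 1.69% and 3.38% of all tested miRNAs. Under median scaling the median of the 15 was -0.31, beside -0.19 over all tested miRNAs.

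**Figure D4:**
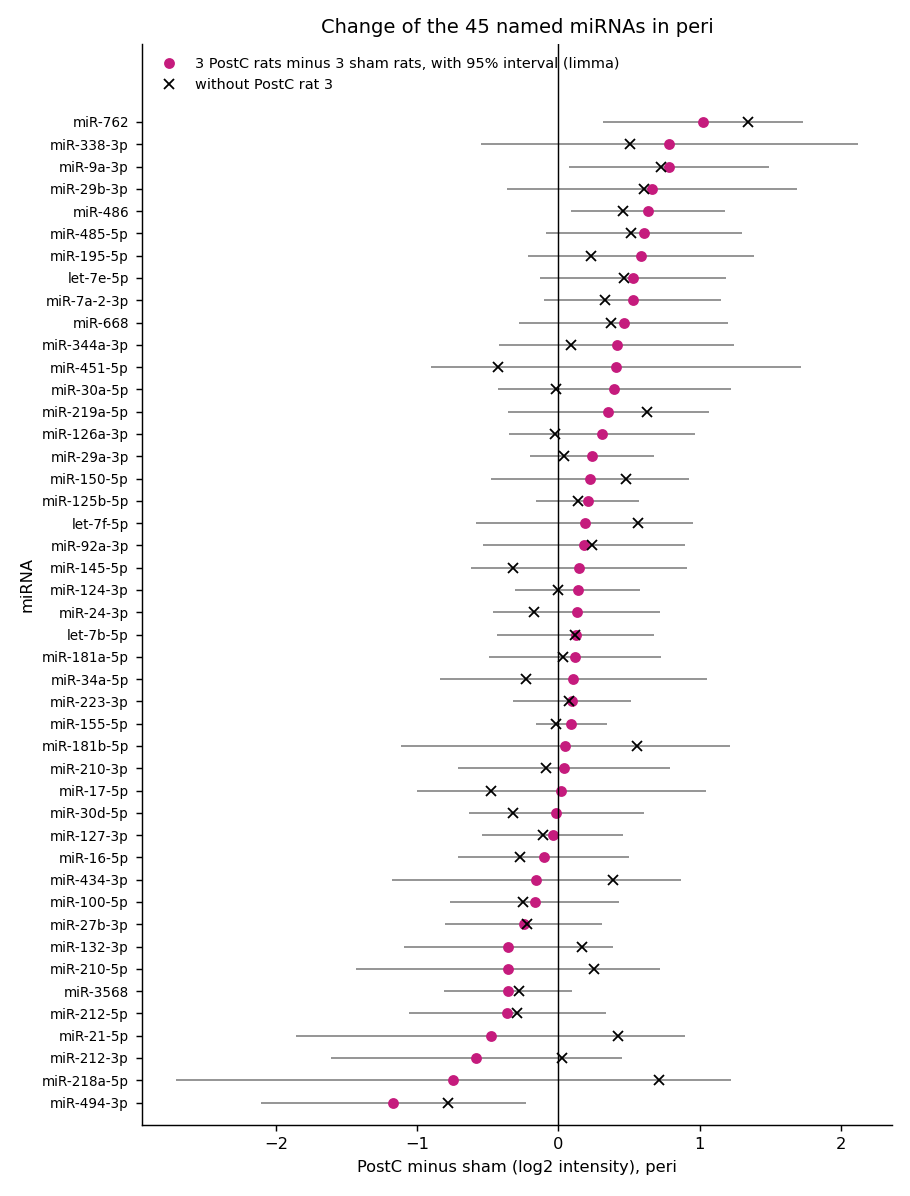
Difference of the PostC and sham means in peri (horizontal axis, log2 intensity) for the 45 named miRNAs (vertical axis), with the 95% interval of limma (grey lines) and the same difference without PostC rat 3 (crosses). Without this rat miR-218a-5p moves from -0.74 to 0.72 and miR-451-5p from 0.41 to -0.43, whereas miR-494-3p and miR-762 keep their sides of 0.

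Whether the difference between PostC and sham depended on the region was tested on the peri minus core difference of each rat. No miRNA passed the adjusted threshold (0 of 532, 0%), and the smallest adjusted p of limma was 0.309, while 56 miRNAs (10.5%) had an unadjusted p under 0.05. The smallest p belonged to miR-338-3p, whose PostC mean differed from sham by 0.79 in peri and by -3.03 in core, a difference between regions of 3.81 ± 0.82 (SE, limma, adjusted p = 0.309). For miR-29b-3p the values were 0.66 in peri and -3.46 in core, and for miR-21-5p -0.48 in peri (0.42 without PostC rat 3) and 2.42 in core. Core arrays varied as well in the number of miRNAs more than 1 log2 unit from the sham peri mean. It was 140, 31 and 128 for the core arrays of PostC rats 1, 2 and 3, and 11, 121 and 15 for those of the sham rats. Without PostC rat 3, 2 miRNAs passed (0.376%), miR-132-5p and miR-181d-5p, and without PostC rat 2, 10 did, so the count rested on single rats. miR-132-5p and miR-181d-5p are named after their values were seen.

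The comparison of PostC with tMCAO in peri shares its PostC arrays with the comparison above and asks how far the PostC rats lay from the occluded ones. With all rats, 0 of 532 miRNAs passed the adjusted threshold (0%), the smallest adjusted p of limma was 0.293, and 31 (5.83%) had an unadjusted p under 0.05. Without PostC rat 3, 59 miRNAs passed (11.1%), 47 higher (8.83%) and 12 lower (2.26%) in PostC rats 1 and 2. Leaving out any one of the other PostC or tMCAO rats left 0. The array left out was the PostC array most like tMCAO, so these calls rest on that choice and the differences below are given as a description, with no p. miR-218a-5p differed by 3.24 without rat 3 and by 1.78 with all rats, miR-568 by 3.35 and 2.33 and miR-21-5p by 1.86 and 0.96, all higher in PostC. miR-218a-5p and miR-568 were each below the detection limit on 1 tMCAO array. Of the 47 higher miRNAs, 27 were below the limit on every tMCAO array and have only a bound, the mean of PostC rats 1 and 2 over the dimmest detected signal of the tMCAO arrays or the probe's own signal, whichever was higher. This bound was under 1 for 11 of the 27, which then have no fold, and it was highest for miR-494-5p, at least 3.49-fold higher. On the lower side, miR-425-5p differed by -1.20 without rat 3 and by -0.55 with all rats, with 9.69 and 9.54 in PostC rats 1 and 2, 11.57 in rat 3, 10.64 to 11.11 in tMCAO and 9.93 to 10.22 in sham.

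The 59 miRNAs passed only with rat 3 left out, so its place in them is largely fixed by that choice and is not counted here. Over all 532 miRNAs, rat 3 lay nearer to the tMCAO than to the sham mean in 359 (67.5%), a count that carries no test. Of the 59, 33 were below the limit on every tMCAO array, beside 285 of all 532, and 12 were detected on all 9 peri arrays, beside 167 of all 532. The limit set by the empty spots was 80.9, 346 and 338 units on the tMCAO arrays and 329 on that of PostC rat 3. The part of this background level in the counts was not tested.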

How the data were processed

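MicroRNA levels were measured on 18 single-colour (Cy5) arrays of 9 rats. For each of the 3968 spots per array the authors deposited a median intensity, neither background-subtracted nor normalized. The deposited table of normalized intensity values (linear scale) followed a background subtraction and a LOWESS step. The labels name a miRNeasy kit for the RNA and the paper Trizol, and the paper lists times of sacrifice for tMCAO animals without linking one to the array rats, and none for PostC.

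Spot intensities were corrected by normexp (offset 50), taken to log2 and brought together by cyclic loess across the 18 arrays, control spots were dropped and the 4 spots of a probe averaged. Empty spots (612) set the detection limit, because the files hold no background per spot. This normalization assumes that rises and falls balance. The comparisons used limma 3.58.1 under R 4.3.3 (lmFit, eBayes with a variance trend) on the 9 peri arrays, with Benjamini-Hochberg adjustment over 532 probes at 0.05, and the regions on the peri minus core difference of each rat. Sequences and names are those of the array files, and no genome was used here. The fit was tested on simulated data. Array intensities carry no counting error, and the number of arrays limits the precision.

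The miRNAs named are those past the threshold with groups that do not overlap, filled up to 6 per direction by smallest p among miRNAs detected on all arrays of at least 1 group (of which 4 qualified on the lower side), and the lead members of 19 lists, 18 written from general knowledge and 1 of the miRNAs the study picked. The members and lists were chosen with earlier results of these data known. The alternatives were plain subtraction (floor of 1), no background correction, quantile normalization, median scaling, cyclic loess over the peri arrays, the deposited normalized intensities, other filters and detection limits, no variance trend, removal of a GC trend, only the groups compared, all 18 arrays with the rat as a random block, a replicate block, the methods' t-test (Student) and leaving out each rat. The alternatives for the likeness of arrays were added after seeing the data. Figures were drawn with matplotlib 3.10.9 in Python 3.11.15.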

Additional observations from a re-analysis of the deposited data

Results flagged for a closer look

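Control spots with mismatched probes, which are not part of the miRNA measurement, were brighter on 2 of the 3 PostC peri arrays than on any sham peri array. Their median intensity was 454 units on the peri array of PostC rat 1 and 829 units on that of PostC rat 3, against 73.6 units in PostC rat 2, 85.6 to 130 units on the sham peri arrays and 64.3 to 300.4 units on the tMCAO peri arrays. The core arrays read 188, 15349 and 56.1 units in the sham rats and 91.7, 209 and 447 in the PostC rats, so the brightest array of the series was a sham core array. Their part in the miRNA values of these arrays was not tested. With 3 rats in a group, single values far from the others were not screened by a formal rule, and no difference between regions passed its test with all rats.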

How the results depend on the processing

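For PostC against sham in peri, the number of miRNAs past the adjusted threshold was 0 under all 21 alternatives, with smallest adjusted p-values between 0.0616 (without PostC rat 3) and 0.999. For PostC against tMCAO it was 0 under 20 of 21 alternatives, and leaving out each rat gave between 0 and 59, the 59 without PostC rat 3. For the difference between regions it was 0 under 17 of 19, and leaving out each rat gave between 0 and 10. With the replicate block the counts were 0, 0 and 0. The rat numbers share nothing but a number between groups (9 different rats), and the correlations of deviations between same-numbered PostC and sham rats were -0.12, -0.14 and 0.01. The methods' t-test gave 9 miRNAs at an unadjusted p under 0.05 for PostC against sham, and 0 after adjustment. The number at an unadjusted p under 0.05 (14) was 6 after quantile normalization, 8 with the deposited intensities, 2 among miRNAs detected on all arrays compared, 2 with all 18 arrays and the rat as random block, 40 without PostC rat 2 and 31 without PostC rat 3. The number with groups that do not overlap (27) was 55 after median scaling, where 29.7% of miRNAs had a higher PostC mean in place of 54.7%, and 40.0% did with the deposited intensities. Of the values of the 45 named miRNAs under the alternatives, 907 moved by less than 1 SD among rats and 28 by more, of which most under median scaling. Alternatives that change only the filter or the test leave a difference as it was, and the PostC SD includes rat 3. The 907 therefore do not measure stability, and they hold miR-218a-5p without rat 3, which turned from -0.74 to 0.72. The mean r of PostC rat 3 with tMCAO minus that with sham, 0.038, stayed between 0.029 and 0.060 under the alternatives run for it. Dim signal over the empty spots limits what can be read for miRNAs that PostC rat 3 did not detect.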
